A study of Mus musculus with 4 samples.

Results

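Serpins are protease inhibitors, and the 9 followed here (Serpinb1a, Serpina3g, Serpina3f, Serpinb6a, Serpinb6b, Serpinb9, Serpine2, Serpinc1 and Serpinf1) are those of 53379 genes measured by RNA-seq in large intestinal (LI) Treg cells that were chosen by name. The choice was made with their values in KO and control cells known, so the difference between the groups is a description for these 9 genes and carries no test. They are 9 of the 68 genes in the table with a Serpin symbol. The cells were CD3+CD4+YFP+ Treg cells sorted from the large intestine of adult C57BL/6 mice at steady state. All mice carried Foxp3-YFPcre, in which the Foxp3 gene drives Cre and a YFP marker, so Cre acted in cells that express Foxp3. The 2 control libraries came from littermates with 1 floxed and 1 intact copy of Setd2 (the H3K36 methyltransferase gene), and the 2 KO libraries from mice with both copies floxed. Each library was a pool of 2 to 3 mice, and neither group had fully intact Setd2 or lacked Cre. Values are the deposited FPKM, by definition fragments per kilobase of transcript scaled to the mapped fragments of the library. On this scale levels of different genes can be compared per length. The deposited values were also nearly the same at each rank in all libraries, as quantile normalization gives (see the processing below).

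A serpin presents an exposed reactive centre loop to its target protease. The protease cuts the loop between the residues called P1 and P1′ and is then trapped in a covalent complex, so the loop decides which enzymes are inhibited. Clade B serpins mostly stay inside the cell, where they protect lymphocytes and granulocytes from their own granule and lysosomal proteases. Most clade A serpins are secreted by the liver, but the mouse Serpina3 family has expanded and some of its members, Serpina3g among them, act in the cytosol of leukocytes.

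The loops are printed because they are where the members differ in target. The 63 bases that encode 21 residues from the hinge of the loop onward were read from GENCODE transcripts on GRCm38 for 8 of the 9 genes, and are shown 5′ to 3′ in the coding direction with the codons at P1 and P1′, counted from the hinge, in capitals. The hinge pattern was not found in Serpinf1, which encodes PEDF, a serpin without inhibitory function.
Serpinb1a: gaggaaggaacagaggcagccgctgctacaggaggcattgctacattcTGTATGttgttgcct
Serpinb9: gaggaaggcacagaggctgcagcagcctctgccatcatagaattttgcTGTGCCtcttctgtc
Serpinb6a: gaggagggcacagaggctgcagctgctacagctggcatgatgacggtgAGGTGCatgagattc
Serpinb6b: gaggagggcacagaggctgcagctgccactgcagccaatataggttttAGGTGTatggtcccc
Serpina3g: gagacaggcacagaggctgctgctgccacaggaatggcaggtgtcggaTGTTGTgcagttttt
Serpina3f: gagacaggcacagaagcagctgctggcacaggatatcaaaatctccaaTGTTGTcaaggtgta
Serpinc1: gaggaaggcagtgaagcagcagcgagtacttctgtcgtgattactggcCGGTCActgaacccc
Serpine2: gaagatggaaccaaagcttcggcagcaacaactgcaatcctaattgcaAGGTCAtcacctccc
The codon at P1 was TGT in Serpinb1a, Serpinb9, Serpina3g and Serpina3f, AGG in Serpinb6a, Serpinb6b and Serpine2, and CGG in Serpinc1. Both codons in capitals were the same in Serpina3g and Serpina3f. Over the 63 bases the pairs Serpina3g and Serpina3f, and Serpinb6a and Serpinb6b, were each identical at 45 positions (71.4%), the highest of the 28 pairs. The lowest pair was Serpina3f and Serpine2 with 36.5%. The loops lie at chr13:32842914-32842976 on the minus strand (Serpinb1a), chr13:33015693-33015755 on the plus strand (Serpinb9), chr13:33918137-33918199 on the minus strand (Serpinb6a) and chr13:32978201-32978263 on the plus strand (Serpinb6b). Those of Serpina3g and Serpina3f lie at chr12:104241066-104241128 and chr12:104220239-104220301, and that of Serpinc1 at chr1:161002293-161002355, all on the plus strand. The codons of Serpine2 are split by an intron (chromosome 1, minus strand).

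Of the 9 serpins, 6 passed the filter for testing (protein-coding and a mean FPKM over 5 in at least 1 group), and all 6 had a control mean above 5 as well. Serpine2, Serpinc1 and Serpinf1 stayed under it. For 7 of the 9 serpins both KO values exceeded both control values, for Serpinc1 both were below, and the groups overlapped for Serpine2. Among the 7639 genes tested, the same held upward in 24.2% and downward in 22.9%. A mean FPKM in a sorted population cannot tell more cells that express a gene from more RNA per cell. The summed FPKM of the 9 serpins was 280.27 and 264.81 in the control libraries, compared with 470.62 and 512.61 in the KO libraries. Both KO sums were above both control sums, with a ratio of the means of 1.80.

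**Figure D1:**
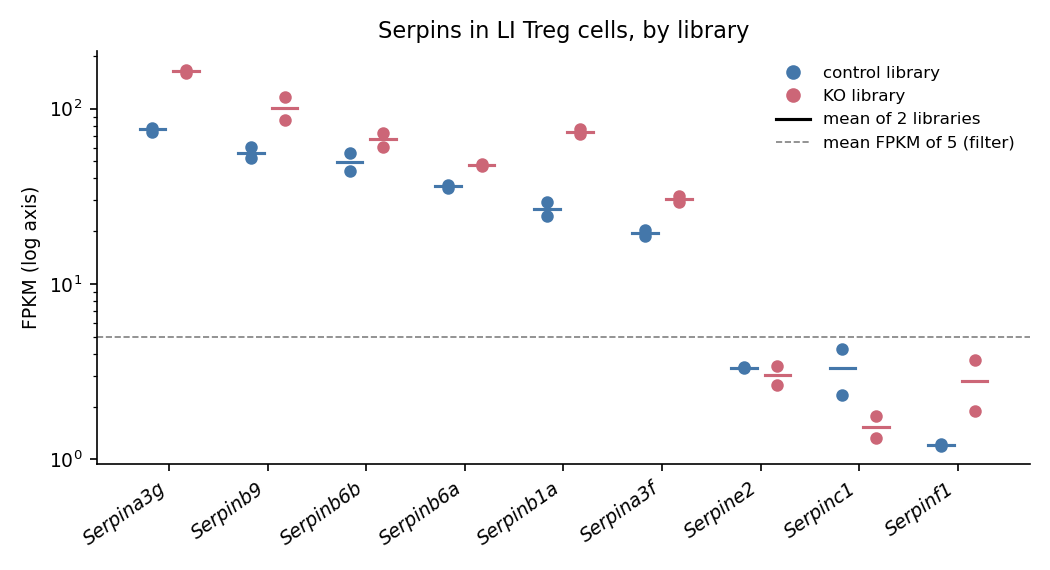
FPKM (log axis) of each serpin in the 2 control (blue) and 2 KO (red) libraries, with a line at the mean of each group and a dashed line at the mean FPKM of 5 used as filter. The 6 serpins to the left lie above the line in every library, with the red points above the blue, and the 3 to the right lie below it.

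The clade B serpins are given first. Serpinb1a (ENSMUSG00000044734, chr13:32842092-32851185, minus strand) inhibits the neutrophil serine proteases elastase, cathepsin G and proteinase-3. Its FPKM was 24.49 and 29.23 in the control libraries and 71.81 and 76.25 in the KO libraries. The groups were far apart, and the KO libraries lay close together. The mean was 26.9 ± 3.35 in control and 74.0 ± 3.14 in KO (SD, n = 2 libraries each), a ratio of 2.76. On the log2(FPKM + 1) scale the difference was 1.43 with an SE of 0.14, rank 13 of the 7639 genes tested by the size of the increase.

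Serpinb9 (ENSMUSG00000045827, chr13:33003250-33017957, plus strand) inhibits granzyme B and is the serpin that shields cytotoxic lymphocytes from granzyme B released in their own cytosol. It was at 60.15 and 52.23 in control and at 86.19 and 116.56 in KO. The groups did not overlap, but the KO libraries differed from each other by more than the control libraries did. The means were 56.2 ± 5.60 and 101 ± 21.5, a ratio of 1.80, and the log2 difference was 0.83 with an SE of 0.17.

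Serpinb6b (ENSMUSG00000042842, chr13:32965209-32979067, plus strand), which has been described as an inhibitor of mouse granzyme A, was at 55.54 and 44.1 in control and at 60.73 and 72.92 in KO. The gap between control 1 and KO 1 was small compared with the spread within either group. The means were 49.8 ± 8.09 and 66.8 ± 8.62, a ratio of 1.34, and the log2 difference was 0.42 with an SE of 0.16.

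Serpinb6a (ENSMUSG00000060147, chr13:33917918-34002794, minus strand) inhibits trypsin-like proteases and cathepsin G. It was at 36.8 and 35.46 in control and at 47.03 and 48.07 in KO. The difference was small, and the libraries of each group were close together. The means were 36.1 ± 0.948 and 47.6 ± 0.735, a ratio of 1.32, with a log2 difference of 0.39 (SE 0.12). Serpinb6a overlaps Ripk1, Nqo2 and 1110046J04Rik on the opposite strand, and the sources used here do not say whether reads were assigned by strand. Ripk1, a kinase of cell death signalling, was at 15.09 to 20.03 in the 4 libraries with overlapping groups (log2 difference -0.04, SE 0.18).

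Serpina3g (ENSMUSG00000041481, chr12:104236245-104241939, plus strand), also known as Spi2A, inhibits lysosomal cysteine cathepsins that leak into the cytosol. It was the most abundant of the 9 in every library, at 74.1 and 78.09 in control and 167.17 and 160.59 in KO. Each group was tight, and the groups were far apart. The means were 76.1 ± 2.82 and 164 ± 4.65, a ratio of 2.15, and the log2 difference was 1.10 with an SE of 0.11 (rank 31 of 7639).

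Serpina3f (ENSMUSG00000066363, chr12:104214544-104221129, plus strand), the neighbouring member of the same family, was at 20.36 and 18.84 in control and 29.26 and 31.89 in KO. The means were 19.6 ± 1.07 and 30.6 ± 1.86, a ratio of 1.56, and the log2 difference was 0.62 with an SE of 0.14. The groups did not overlap, and the ratio was smaller than that of Serpina3g.

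Over all 7639 genes tested the median log2 difference was -0.004, the 5th and 95th percentiles were -0.49 and 0.50, and the median SE was 0.17. The limma fit called 24 genes higher in KO (0.314%) and 21 lower (0.275%) at an adjusted p below 0.05. Serpinb1a and Serpina3g were among the 24. The study's own threshold, an unadjusted p below 0.05, was passed by 658 genes upward (8.61%) and 578 downward (7.57%). All 6 serpins that passed the filter were among the 658. Without KO 1 or without KO 2 the adjusted calls fell to 1 higher and to 1 or 2 lower, and the unadjusted calls higher fell to 419 and 332. Those lower fell to 312 without KO 2. Since the 9 genes were chosen with this contrast known, nothing is read from these counts.

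**Figure D2:**
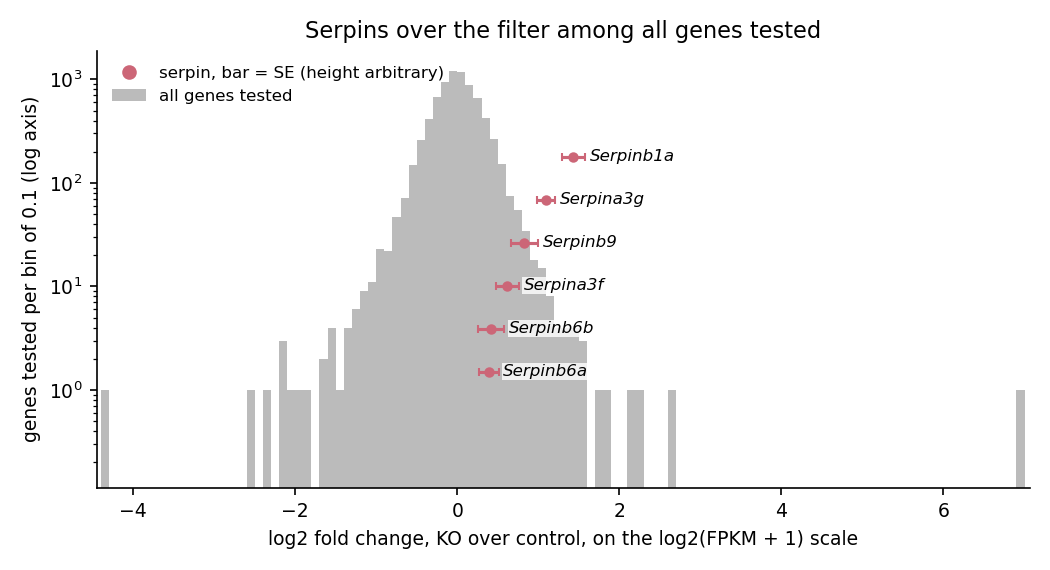
Histogram of the log2 difference between KO and control on the log2(FPKM + 1) scale for the 7639 genes tested (grey, log axis of genes per bin of 0.1), with the 6 serpins over the filter as red points at arbitrary heights and bars of 1 SE. Serpinb6a and Serpinb6b lie inside the 5th to 95th percentile range of -0.49 to 0.50, and Serpina3f, Serpinb9, Serpina3g and Serpinb1a lie to its right.

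The 3 serpins under the filter are mainly known outside lymphocytes. Serpine2, or protease nexin-1, inhibits thrombin and urokinase (ENSMUSG00000026249, chr1:79794197-79861180). It was at 3.35 and 3.32 in control and 3.41 and 2.67 in KO, with overlapping groups. Serpinc1 is antithrombin, the circulating inhibitor of thrombin and factor Xa (ENSMUSG00000026715, chr1:160978585-161005863). It was at 4.28 and 2.32 in control and 1.32 and 1.76 in KO, and was the only one of the 9 that was lower in both KO libraries. It overlaps Zbtb37 on the opposite strand, which reached 5.32, above every value of Serpinc1 itself. Serpinf1 encodes PEDF, an anti-angiogenic secreted protein (ENSMUSG00000000753, chr11:75409769-75422701), and was at 1.2 and 1.22 in control and 3.7 and 1.9 in KO. Both KO values of Serpinf1 were higher, but all 4 were low and the KO libraries were far from each other.

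The order of the levels changed between the groups. In control cells Serpina3g was followed by Serpinb9 and Serpinb6b, whose ranges overlapped, and then by Serpinb6a, Serpinb1a and Serpina3f. In KO cells Serpinb1a had moved from place 5 to place 3, after Serpina3g and Serpinb9, with a range that overlapped that of Serpinb6b. The other neighbours among the 6 most abundant did not overlap in either group. Serpine2 and Serpinc1 overlapped at the low end in control, as did Serpine2 and Serpinf1 in KO.

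As a share of the summed FPKM of the 9 serpins, Serpinb1a took 8.74% and 11.0% in the control libraries and 15.3% and 14.9% in the KO libraries. Serpina3g took 26.4% and 29.5% in control, compared with 35.5% and 31.3% in KO. The share of Serpinb9 overlapped between the groups, with 21.5% and 19.7% in control and 18.3% and 22.7% in KO. The shares of Serpinb6a (13.1% and 13.4% against 9.99% and 9.38%) and Serpinb6b (19.8% and 16.7% against 12.9% and 14.2%) were lower in both KO libraries although their FPKM were higher. Serpina3g, Serpinb1a and Serpinb9 together made up 56.6% and 60.3% of the sum in control and 69.1% and 68.9% in KO.

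**Figure D3:**
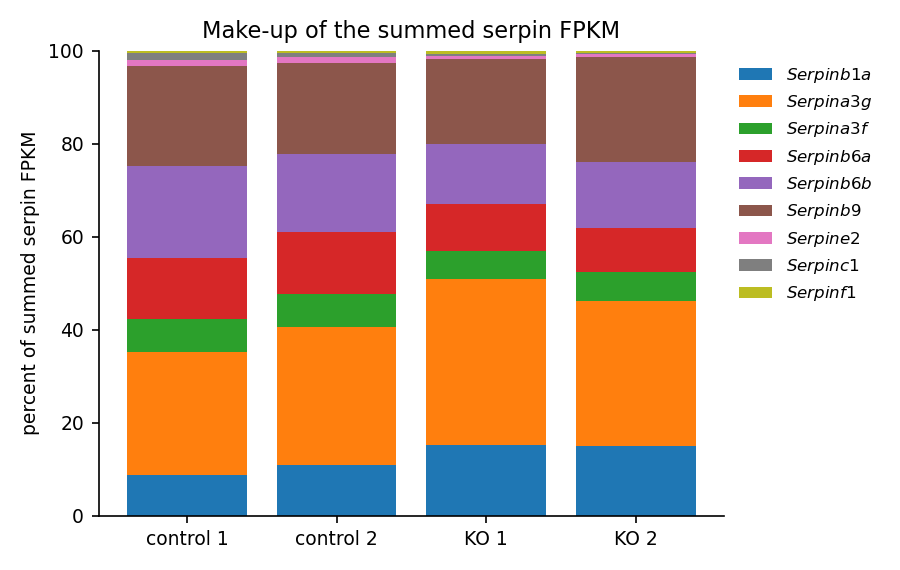
Stacked bars of the percent of the summed serpin FPKM held by each of the 9 serpins in the 2 control and 2 KO libraries. Serpinb1a and Serpina3g take a larger share in both KO libraries, and Serpinb6a and Serpinb6b a smaller one.

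Ratios between close relatives were taken within each library. Serpina3g over Serpina3f was 3.64 and 4.14 in control and 5.71 and 5.04 in KO, so the excess of Serpina3g was larger in both KO libraries. Serpinb6a over Serpinb6b was 0.663 and 0.804 in control and 0.774 and 0.659 in KO, with overlapping groups. Serpinb9 over Serpinb1a was 2.46 and 1.79 in control and 1.2 and 1.53 in KO, which brought both genes closer to each other in KO cells. The coding sequences of Serpina3g and Serpina3f were 87.4% identical over 747 aligned bases, those of Serpinb6a and Serpinb6b 86.4% over 1131 and those of Serpinb6b and Serpinb9 69.1% over 1107. Reads from such relatives can fit several genes, and RSEM divides them by an estimate. Of the exact 50-base stretches of the transcripts, 281 of 1754 in Serpina3g (16%) and 236 of 2199 in Serpina3f (10.7%) were also found in another gene, in each case another Serpina3 gene. The shares were 3.4% for Serpinb1a, 3.1% for Serpinb6b, 3.0% for Serpinb6a, 0.4% for Serpinb9 and 0.0% for Serpine2, Serpinc1 and Serpinf1. How the reads of Serpina3g and Serpina3f were divided was not tested.

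Most relatives of these serpins were near 0, also in the same gene clusters. The chromosome 12 cluster (chr12:103614786-104414329) holds 28 serpin genes, and besides Serpina3g and Serpina3f the other 26 were below an FPKM of 1 in every library. The highest of these was Serpina3n at 0.71. The chromosome 13 cluster (chr13:32842092-34002794) holds 16 serpin genes, with Serpinb1a, Serpinb6b, Serpinb9 and Serpinb6a as its expressed members. Of the other 12, 11 were below 1 in every library, and Serpinb1b reached 2.42. Over the whole genome 54 of the 59 other serpins were below 1 in every library, and 31 were listed at 0 in all 4. Serpini1 (neuroserpin, an inhibitor of tissue plasminogen activator) was the one other serpin that could be tested. It was at 6.98 and 4.52 in control and 6.20 and 11.60 in KO, and limma did not call it (log2 difference 0.52, SE 0.32, adjusted p = 0.463, n = 2 libraries each).

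**Figure D4:**
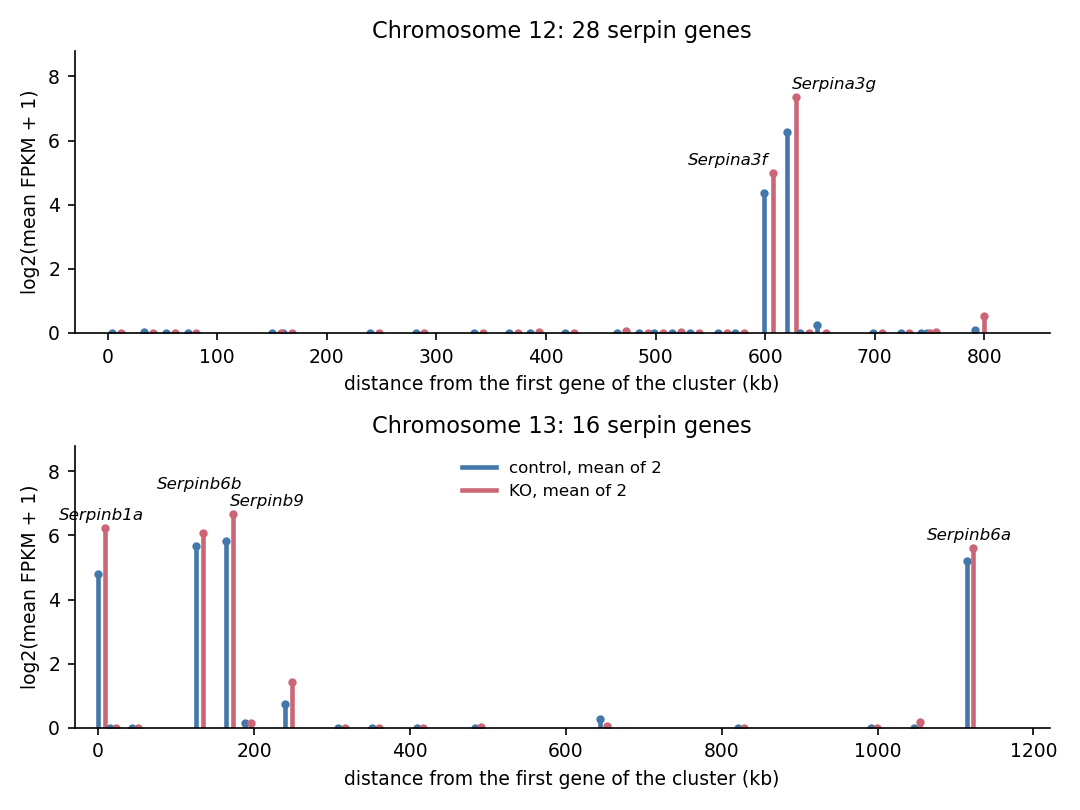
Mean level of each serpin gene, as log2(mean FPKM + 1), in control (blue) and KO (red) libraries along the chromosome 12 cluster of 28 serpin genes and the chromosome 13 cluster of 16, against the distance in kb from the first gene. The 2 bars of a gene are set slightly apart. Serpina3f and Serpina3g stand alone in the first cluster, and Serpinb1a, Serpinb6b, Serpinb9 and Serpinb6a rise above their neighbours in the second.

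The promoters of the chromosome 12 pair are shown because both genes were higher in KO. They span 250 bases before to 50 bases after the annotated start, from RefSeq on GRCm38.p6, for Serpina3g (chr12:104235897-104236196) and the upstream of 2 entries for Serpina3f (chr12:104214294-104214593), both on the plus strand.
Serpina3g: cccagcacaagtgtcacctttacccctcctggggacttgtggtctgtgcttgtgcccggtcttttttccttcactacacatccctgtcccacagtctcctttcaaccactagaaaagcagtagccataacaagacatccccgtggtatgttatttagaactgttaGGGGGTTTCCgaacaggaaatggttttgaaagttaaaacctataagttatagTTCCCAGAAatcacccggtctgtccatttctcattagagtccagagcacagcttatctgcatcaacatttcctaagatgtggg
Serpina3f: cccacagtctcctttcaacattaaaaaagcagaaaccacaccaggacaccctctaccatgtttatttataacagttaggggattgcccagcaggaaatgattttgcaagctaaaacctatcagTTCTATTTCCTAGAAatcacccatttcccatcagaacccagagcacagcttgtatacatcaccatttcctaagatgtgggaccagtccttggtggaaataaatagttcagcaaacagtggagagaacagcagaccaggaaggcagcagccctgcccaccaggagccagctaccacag
Capitals mark matches, on either strand, to TTCNNNGAA, the spacing bound by many STAT factors, GAAANNGAA, an interferon response pattern, TGANTCA, the AP-1 pattern, and the kappaB consensus. Both promoters hold TTCNNNGAA, beginning at position -33 from the start site in Serpina3g and at -121 in Serpina3f. In Serpina3f it overlaps a GAAANNGAA on the other strand. Serpina3g also holds a kappaB match beginning at -85. RefSeq entries were found for 8 of the 9 serpins, 10 entries in all, with none for Serpinb1a. TTCNNNGAA was present for Serpina3f, Serpina3g and Serpinb6a, compared with 8.3% of all 32851 promoters of the same length, a share of single entries. In Serpina3g and Serpina3f this match lies in a similar stretch of sequence, so it is not independent between these related genes. GAAANNGAA was present for Serpina3f, Serpinb6a and Serpinb9 (8.56% of all), the kappaB consensus for Serpina3g alone (4.51%), and TGANTCA for none of them (7.81%). A match is a description of letters, and binding was not measured in these libraries.

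Proteases were followed as a list of 39 granzymes, cathepsins, caspases and others, which holds known targets of these serpins and also proteases that they are not known to inhibit. Of the 22 that could be tested, 8 were higher in KO at an unadjusted p below 0.05 (36.4%, compared with 8.61% of all genes tested) and 1 was lower, with 13 not called. The list was chosen with earlier results of these data known, so its calls and its share are a description and no independent evidence. The 8 became 5 without control 1 and 3 without KO 2. The median log2 difference was 0.22. Gzma, the granule protease attributed to Serpinb6b as a target, was at 218.91 and 290.35 in control and 563.13 and 872.34 in KO. Its groups were far apart, and it was the one protease called after adjustment (limma, log2 difference 1.47, SE 0.22, adjusted p = 0.0475). Leaving out control 1, KO 1 or KO 2 ended this call (limma, adjusted p = 0.0714, 0.0612 and 0.231), and over all 14 alternatives the adjusted p ranged from 0.00498 to 0.447. Gzmb, the target of Serpinb9, was the most abundant protease, at 979.27 and 1547.86 in control and 1571.83 and 1926.00 in KO. It was higher in both KO libraries by a narrow margin, and limma did not call it (log2 difference 0.50, SE 0.22, adjusted p = 0.313). Serpinb9 was 1.80 times its control mean in KO and Gzmb 1.38 times.

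The other proteases higher in KO at an unadjusted p were the aspartic protease Ctse, the inflammasome caspase Casp1, Gzmc, Ctso, Ctsc, Ctsh and Ctsa, with log2 differences from 1.22 for Ctse to 0.34 for Ctsa. Ctsc, which activates granzymes by removing their propeptide, was at 63.28 and 57.94 in control and 80.66 and 82.53 in KO. Ctsw, a cathepsin of cytotoxic lymphocytes, was the one called lower, at 23.90 and 26.22 in control and 16.48 and 16.68 in KO (log2 difference -0.57). None of these 8 passed after adjustment. Serpina3g was described above as an inhibitor of lysosomal cysteine cathepsins. Among these, Ctsh, called higher above, was at 45.36 and 47.12 in control and 56.95 and 65.76 in KO. Ctsb was at 451.88 to 552.91 and Ctsl at 25.71 to 41.22 with overlapping groups, and neither was called (log2 differences 0.09 and 0.23). Which cathepsins Serpina3g acts on in these cells was not tested. The neutrophil proteases given above as targets of Serpinb1a could not be tested, since none of Elane, Prtn3 and Ctsg passed the filter.

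Inhibitors of other families were read the same way. Of 42 listed, 41 were in the table and 12 could be tested. At an unadjusted p below 0.05, 2 were higher (Wfdc17, a WAP-domain protein, by 0.88 and Birc5, or survivin, by 0.56 on the log2 scale) and Cst3 was lower (-0.40). Without KO 2 only 1 was called higher, and without control 2 there were 2 called lower. None was called after adjustment with limma, and the median log2 difference was 0.03. Cst3, the secreted cystatin C, was at 180.70 and 179.90 in control and 133.77 and 138.52 in KO. The most abundant of the rest, Cstb and Birc3, were higher in both KO libraries without being called (log2 differences 0.21 and 0.18).

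**Figure D5:**
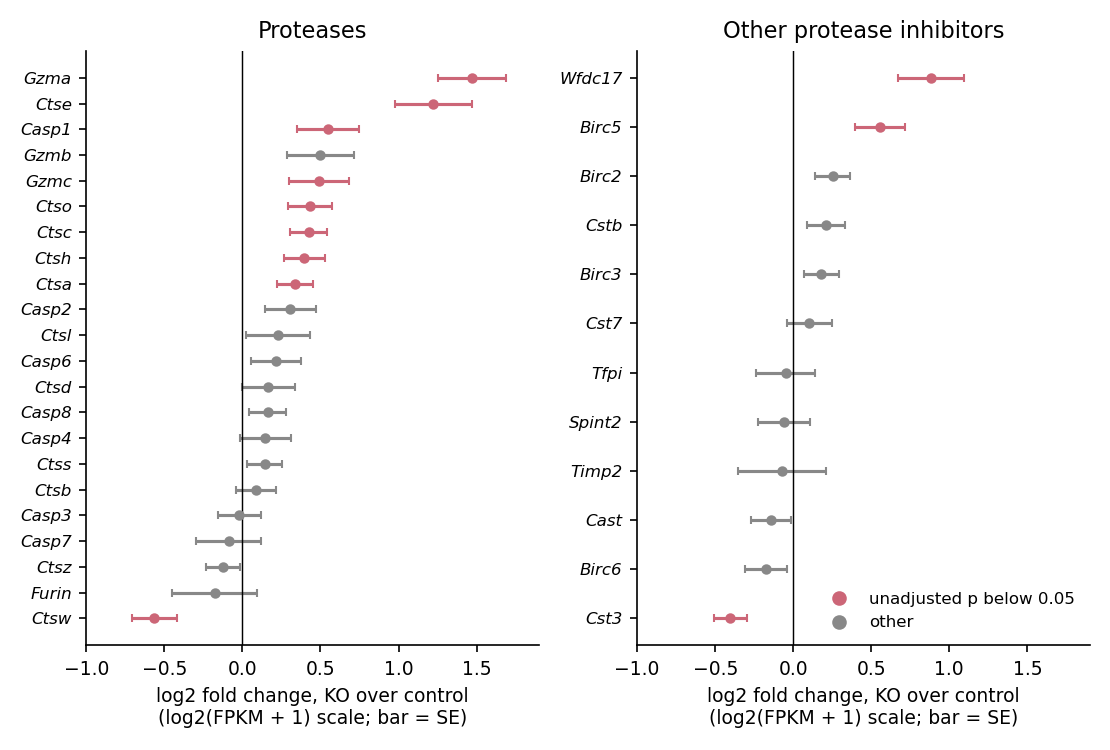
Log2 difference between KO and control on the log2(FPKM + 1) scale, with bars of 1 SE, for the 22 proteases and 12 inhibitors of other families that were tested, in red where the unadjusted p was below 0.05. Gzma and Ctse lead the proteases, 8 of which are red to the right of 0, and 3 inhibitors are red, 1 of them (Cst3) to the left.

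Genes around the serpins were examined as well. The serpins over the filter had few tested neighbours, so how far their differences reached along the chromosome cannot be judged. Within 500 kb of any of the 9, 27 genes other than serpins were tested, and 4 rose and 1 fell at an unadjusted limma p below 0.05 (14.8% rose, compared with 8.61% of all genes, and 3.7% fell, compared with 7.57%), and none passed after adjustment. The 4 that rose became 2 without KO 1 or under a replicate block and 1 without KO 2, and the 1 that fell became 0 without control 2, KO 1 or KO 2. By nearest serpin, 13 of the 27 lie beside Serpinf1, 5 beside Serpinc1 and 3 beside Serpine2, which were all under the filter, and 4 beside Serpinb6a. The pooled shares thus rest mostly on neighbours of serpins that were not tested. Around Serpinb1a, Serpinb6b and Serpinb9 the one tested neighbour was Wrnip1, a protein of DNA replication 19.5 kb from Serpinb1a, at 7.63 to 10.21 with overlapping groups (log2 difference 0.04, SE 0.21). Around Serpina3g and Serpina3f the only tested neighbour was Dicer1, the microRNA processing enzyme, 446 kb from Serpina3g. Dicer1 was at 7.05 to 9.24 with overlapping groups (log2 difference -0.08, SE 0.21). Of the 4 called higher, Bphl lies 34.8 kb from Serpinb6a and was at 3.71 and 3.90 in control and 8.45 and 6.29 in KO (log2 difference 0.79). Rpa1, Tlcd2 and Inpp5k lie within 500 kb of Serpinf1 (log2 differences 0.38, 0.50 and 0.31). Prdx6, a peroxiredoxin 234 kb from Serpinc1, was the one called lower (log2 difference -0.30).

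The genes whose pattern over the 4 libraries was closest to that of Serpinb1a and of Serpina3g were found by the Euclidean distance between log2(FPKM + 1) values centred on their mean, over 7639 genes. Pde3b, a cyclic AMP phosphodiesterase, was closest to Serpinb1a (distance 0.0538), at 6.80 and 8.33 in control and 20.94 and 21.70 in KO. Lztfl1 (0.264) and Scin, an actin-severing protein (0.276), followed. For Serpina3g the closest was Lilr4b, an immunoglobulin-like receptor (0.0207), at 1014.93 and 1085.91 in control and 2310.35 and 2192.29 in KO. Nmur1 (0.0582) and Gng4 (0.0895) followed. With 4 libraries such nearness is a description of 4 points.

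Other features of the libraries were set beside the serpins. Serpinb1a is abundant in neutrophils, and the summed FPKM of 10 neutrophil markers was 0.52 and 1.94 in control and 2.55 and 1.65 in KO, with 5 of them (Elane, Cxcr2, Ngp, Camp and S100a9) listed at 0 in every library. The 4 hepatocyte markers, set beside Serpinc1, summed to 0.23 to 1.36, with Ttr at 0 in every library and Alb at no more than 0.13. The 11 macrophage and dendritic cell markers summed to 320 and 286 in control and 324 and 355 in KO, with 9 above 1 in every library, Lyz2 the highest (127.83 to 167.97) and none at 0 throughout. Adgre1 (4.38 and 3.66 against 5.6 and 6.24), Xcr1 (1.41 and 2.0 against 3.43 and 3.34), C1qc, Cd14 and Mrc1 were higher in both KO libraries. So was Itgax, by a narrow margin and at no more than 0.69. The rest, Lyz2 among them, overlapped between the groups. The 9 stromal markers summed to 39.5 and 42.5 in control and 58.1 and 51.1 in KO, of which Pecam1 gave 34.65 to 49.25 and Col1a1 no more than 0.61. Pecam1, Dcn (1.21 and 3.22 against 4.47 and 4.25) and Acta2 (1.65 and 1.82 against 2.69 and 2.48) were higher in both KO libraries. Pdgfra, at no more than 0.33, was lower in both, and the rest overlapped. The 6 CD8 T and NK cell markers summed to 4.79 and 3.05 in control and 5.67 and 6.28 in KO, with Ncr1 at no more than 0.01. Of these 6, only Klrk1 was higher in both KO libraries (1.18 and 0.54 against 2.71 and 3.57). Cd8b1, the most abundant of them in control, overlapped between the groups (2.96 and 2.08 against 2.34 and 2.32). The KO sums of these 3 last lists were above the control sums, as were those of the serpins, and their part in the serpin values was not tested. Sums of epithelial cell markers (27.66 to 35.44) and of mast cell and basophil markers (12.80 to 18.85) were lower in KO, and those of B and plasma cell markers (130 to 188) overlapped. The lower sums rested on Epcam (28.65 and 30.81 against 19.58 and 21.13) and Kit (16.51 and 18.83 against 12.15 and 11.39). Without these genes both sums were higher in KO, at 4.62 and 4.63 against 8.08 and 7.43 for the epithelial list, where Krt18 was next, and at 0.13 and 0.02 against 0.68 and 1.41 for the mast cell and basophil list. The Treg and T cell markers Cd3e, Cd4, Ctla4, Il2ra and Ikzf2 were at 84.12 or more in every library, whereas Foxp3, the gene that defines Treg cells and drives the sorted YFP, was at 2.62 to 5.61. The 8 markers of this list summed to 3031 and 3218 in control and 3635 and 3766 in KO, of which Ctla4 gave 1593.26 to 2310.35. Without Ctla4 the sums overlapped (1438 and 1518 against 1475 and 1455), and Il2ra (183.66 and 180.37 against 152.14 and 162.77) and Ikzf2 (120.75 and 115.57 against 84.12 and 98.36) were lower in both KO libraries. Setd2 itself was at 38.19 and 27.36 in control and 26.33 and 36.30 in KO (limma, log2 difference -0.06, SE 0.21, adjusted p = 0.927), a value over the whole gene that does not check the deletion of the floxed part.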

How the data were processed

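The experiment was RNA-seq of poly(A) RNA from sorted LI Treg cells, with 2 control and 2 KO libraries grouped by the sample titles. The authors mapped reads to GRCm38 with STAR 2.5, quantified genes with RSEM 1.2 on a GENCODE annotation and deposited FPKM rounded to 2 decimals for 53379 genes. The deposited FPKM had nearly the same value at each rank in all libraries (largest spread over the 5000 highest ranks 0.173% of the mean; sums of 774923 to 774999), as quantile normalization gives, and the sources used here name no such step. Depth is therefore unknown, no counting interval was computed, and a change in total mRNA cannot be seen. Control 2 listed 28426 genes at 0 and the other libraries 33223 to 33957.

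Protein-coding genes whose mean FPKM was above 5 in at least 1 group (7639) were fitted with limma 3.58.1 in R 4.3.3 on log2(FPKM + 1), KO against control, two-sided, with an empirical Bayes trend and Benjamini-Hochberg adjustment over all of them. The study used edgeR on counts, which were not analysed here. Adding 1 understates the change of low genes. An exact permutation test of 1 gene with 2 against 2 libraries cannot give a p below 0.333. The limma p-values measure only the spread between pools of mice and their libraries, which cannot be told apart. For each gene the empirical Bayes fit moderates this spread toward that of genes of similar level, and the SEs given are the moderated ones. The fit was tested on simulated data. The serpins, the gene lists and the tests were chosen with earlier results of these data known. Positions, transcripts and gene types came from a later GENCODE annotation of GRCm38, in which 53274 identifiers were found, and promoters from RefSeq on GRCm38.p6. The loop was located by the hinge pattern shared by inhibitory serpins in the translated transcript with the longest coding sequence (for Serpina3g a coding length of 747 bases).

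Named were the 9 serpins, Setd2, other serpins over the filter, proteases and inhibitors called at an unadjusted p (up to 8 per direction) and the 3 most abundant of each list, up to 5 called neighbours per direction, the 3 genes nearest to Serpinb1a and Serpina3g, and marker genes at 0 or highest in their list. Other genes (Ctsl, Wrnip1, Dicer1, the genes that overlap Serpinb6a or Serpinc1, Serpina3n, Serpinb1b, the proteases of neutrophils, and the markers Alb, Ncr1 and Col1a1) were named after their values were seen. So were the markers Klrk1, Cd8b1, Adgre1, Xcr1, C1qc, Cd14, Mrc1, Itgax, Dcn, Acta2 and Pdgfra. Alternatives were the pseudocounts 0.1 and 5, a filter at a mean FPKM of 1, no filter, the inclusion of every gene type, libraries scaled to sum to 1000000 or centred on their medians, no trend, a replicate block, neighbours within 200 kb or 1 Mb, and each library left out. A crossed pairing of the libraries was added after seeing the data and is counted among the 14 alternative fits. Nothing in the labels or methods says that same-numbered pools were collected together, so the numbers were not taken as pairs. Figures were drawn with matplotlib 3.10.9 in Python 3.11.15.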

Additional observations from a re-analysis of the deposited data

How the results depend on the processing

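The log2 differences of the 6 serpins over the filter stayed above 0 under all 14 alternatives, from 1.31 to 1.56 for Serpinb1a, 1.06 to 1.13 for Serpina3g, 0.61 to 1.04 for Serpinb9, 0.53 to 0.68 for Serpina3f, 0.26 to 0.58 for Serpinb6b and 0.35 to 0.41 for Serpinb6a. The log2 ratio of Serpinb6a over Serpinb6b, KO minus control, was -0.03 and ranged from -0.17 to 0.11 when a library was left out, turning to 0.11 without control 2 and to 0.09 without KO 2. The serpins with both KO libraries below both controls numbered 1 to 2 when a library was left out.

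Counts over all genes moved most. The 24 genes called higher and 21 lower at an adjusted p became 8 and 3 without a filter, 5 and 8 with all gene types and 1 and 2 without a trend, and 11 were lower with a mean FPKM of at least 1. Leaving out a library gave 1 to 23 higher and 1 to 20 lower. At an unadjusted p, 1198 were higher without a filter, and leaving out a library gave 332 to 643 higher and 312 to 604 lower. Under a replicate block, 15 genes rose and 12 fell at an adjusted p and 419 and 377 at an unadjusted p, 2 neighbours were called higher and 0 lower, and Gzma stayed called. Same-numbered libraries deviated from their group means in opposite ways (r = -0.305 over genes). A crossed pairing, chosen after seeing the data, called 240 higher and 225 lower at an adjusted p, 1008 and 983 at an unadjusted p, 3 proteases higher and 1 lower and 2 other inhibitors higher and 1 lower at an adjusted p, and 1 other serpin higher at an unadjusted p.

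Gzma kept an adjusted p below 0.05 in 5 of 14 alternatives (range 0.00498 to 0.447), and in 8 of the other 9 no protease was called higher at an adjusted p. Without a filter the call was Prtn3, at no more than 0.17 FPKM in any library. The crossed pairing, chosen after seeing the data, counts among the 14 and is among the 5 that kept Gzma (limma, adjusted p = 0.0119). At an unadjusted p, proteases called numbered 3 to 8 higher and 1 to 2 lower without 1 library, and 2 were lower with a mean FPKM of at least 1 or a rescaled total. Other inhibitors called higher numbered 5 without a filter and 1 to 3 without 1 library, with 1 to 2 lower. Other serpins called higher numbered 3 without a filter and 0 to 1 without 1 library. Neighbours called numbered 1 to 4 higher and 0 to 1 lower without 1 library. The neighbours called lower numbered 2 without a filter, with all gene types or within 1 Mb, and 0 without a trend or within 200 kb. The causes of these moves were not tested. The files hold no counts, so low serpins such as Serpinc1 and Serpinf1 have no counting error to set beside their values.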
